A study of Mus musculus with 6 samples.

Results

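Chemokines are small secreted proteins that steer the movement of leukocytes and other cells, and their receptors are mostly G protein-coupled proteins on the surface of the responding cell. This account describes the chemokine and chemokine receptor genes of the mouse sciatic nerve in newborns (postnatal day 1, P1) and young adults (postnatal day 60, P60). The genes were chosen by name: a row belonged if its symbol was one of the Ccl, Cxcl, Cx3cl or Xcl ligands or one of the Ccr, Cxcr, Cx3cr, Xcr or Ackr receptors followed by its number. Of 41605 rows, 67 had such a symbol, of which 45 were ligand rows (39 symbols, because several genes have copies), 18 were signalling receptors and 4 were atypical receptors. Cell sources are given for the 42 genes with 50 or more unique molecular identifiers (UMIs) over the 6 libraries, 29 ligands, 9 receptors and all 4 atypical receptors. The other 25 genes held 0 to 49 UMIs, and 10 of them held none. Ccr10 with 50 UMIs and Xcl1 with 53 lay just inside the limit, and Ccr7 with 49 and Ccl22 with 47 just outside.

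The 3 libraries per age came from separate suspensions of dissociated nerve run on the 10x Chromium 3′ v2 system, and each suspension pooled male and female mice in equal numbers. The mice were untreated, on the C57bl/6J background, and carried a Cre active in Schwann cells, a Cre-dependent eYFP reporter that marks those cells, and DsRed under a chicken beta actin promoter that marks all cells. DsRed+ cells were sorted at both ages, and part of the eYFP+ Schwann cells was removed at P1 only. Animals were not perfused, so blood cells could be carried along. No group had a treatment, and age was the only labelled difference between groups. P-values measure the spread between these libraries of pooled animals.

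After a filter of 500 to 5000 genes per cell, the libraries held 3435 to 4586 cells with a median of 3627 to 6840 UMIs per cell. Cells were clustered without the chemokine genes, and clusters were named from marker genes. They are Schwann-like (3019 cells at P1, 421 at P60), fibroblast-like (5075 and 7848), endothelial-like (726 and 1805), mural-like (599 and 847) and immune-like (1049 and 1389), and the suffix is dropped below. At P1, 1267 cells stayed unnamed, and at P60, 292 cells lay in 4 clusters with markers of more than 1 class, 3 of them endothelial and mural and 1 of 21 cells fibroblast and mural. Levels are CPM, the UMIs of a gene scaled to 1000000 UMIs of the class in a library. The tags come from the 3′ ends of transcripts, so a level is a count of captured molecules, not scaled by length, and fewer cells of a subtype cannot be told apart from fewer molecules per cell within a class. The P60 replicate 3 library stood apart: it supplied 118 of the 130 cells of 1 macrophage cluster, 153 of the 174 cells of 1 vascular smooth muscle cluster and 299 of the 319 cells of 1 endothelial cluster.

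Chemokines are usually sorted by role. Homeostatic ligands such as Cxcl12, Cxcl13, Ccl19 and Ccl21a are made continuously and place cells within tissues and lymphoid organs. Inflammatory ligands such as Ccl2, Cxcl1 and Cxcl2 are induced quickly and call monocytes or neutrophils. Atypical receptors bind chemokines without classical G protein signalling and take them up or carry them across a cell layer, which shapes the amount that other cells meet.

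The ligand genes held 325180 UMIs, the signalling receptors 12353 and the atypical receptors 17886. Of the 41 described genes with over 3 UMIs within the classes at both ages, 34 had the same class with the highest mean level at both ages. At P1 the class of highest level was immune for 15 ligands, Schwann for 4, fibroblast for 4, endothelial for 3 and mural for 2. At P60 it was immune for 14 ligands, endothelial for 5, Schwann for 4, fibroblast for 4 and mural for 2. Receptors, atypical ones included, were highest in immune cells for 7 genes at P1 and 8 at P60. For some genes the libraries of the highest class overlapped with those of the next, among them 3 of the 4 Schwann, 3 of the 4 fibroblast and both mural ligands at P60. The class with the highest mean changed for Ackr3, Ackr4, Ccr10, Cxcl9, Cxcl10, Cxcl14 and Cxcr4. Of these, Cxcl9 and Cxcr4 had a highest class without overlap at both ages, while the highest class overlapped with the next for Ackr3 and Ackr4 at P1, for Cxcl10 and Cxcl14 at P60 and for Ccr10 at both ages.

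**Figure D1:**
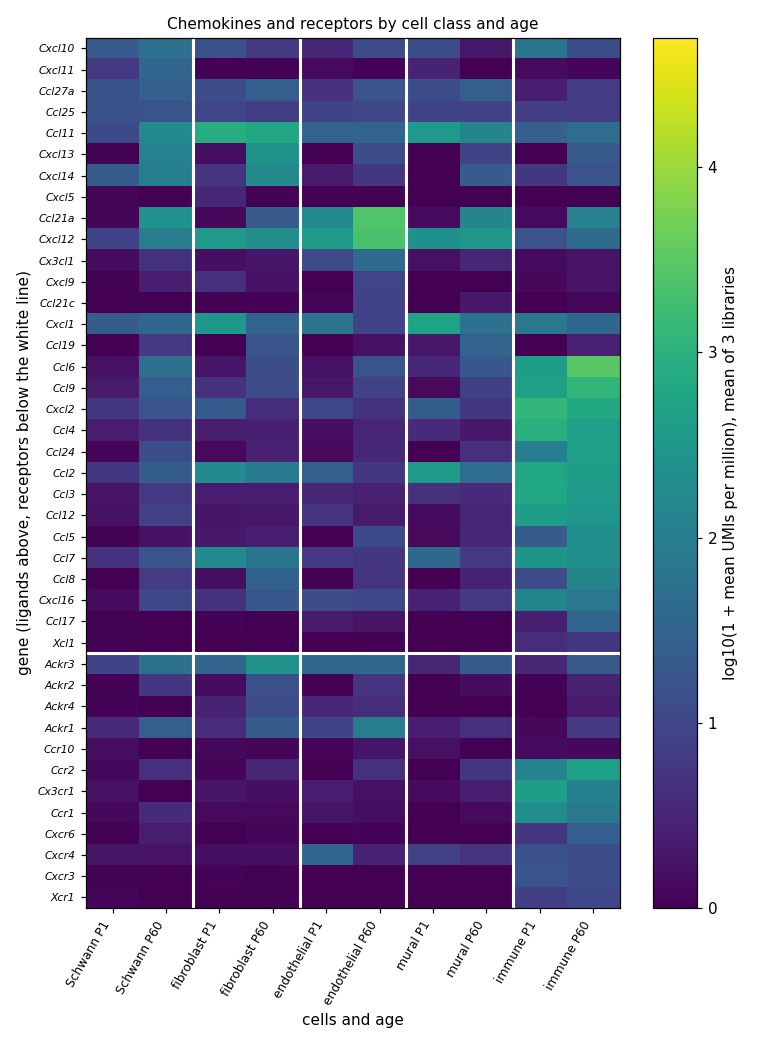
Mean level of the genes named here in each cell class at P1 and P60, as log10(1 + CPM) over 3 libraries, with ligands above and receptors below the white line. The immune columns hold the most bright rows among both ligands and receptors, and Ccl21a is bright in endothelial cells at P60.

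The summed level of all ligands was higher at P60 in endothelial cells, whose P1 libraries held 819, 556 and 795 CPM and whose P60 libraries held 5358, 4631 and 5415 CPM. Immune cells held 5220 to 5959 CPM of ligands at P1 and 7881 to 8220 at P60. Fibroblasts held 1925 to 2006 CPM at P1 and 1457 to 1756 at P60, and mural cells 1422 to 1855 and 797 to 921. Schwann cells held 135 to 143 CPM at P1 and 678 to 1716 at P60. The ages did not overlap in any of the 5 classes, with ligand sums higher at P60 in Schwann, endothelial and immune cells and lower in fibroblasts and mural cells. Receptor transcripts summed to 783 to 861 CPM in immune cells at P1 and 768 to 844 CPM at P60, so that these ranges overlapped, although single receptors moved in opposite directions.

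Fibroblasts were the largest class and made the most abundant chemokine of the nerve. Ccl11, or eotaxin-1, which attracts eosinophils, held 68789 UMIs. Over both ages together most of them came from endoneurial fibroblasts, the fibroblasts inside the nerve fascicles. Within endoneurial fibroblasts Ccl11 stood at 1552, 1584 and 1740 CPM at P1 and at 3433, 3619 and 3377 CPM at P60, a 2.14-fold higher mean (log2 change 1.18 ± 0.10 SE, edgeR adjusted p = 5.6e-07). The endoneurial fibroblasts of P1 joined a cluster of 1332 cells with a cycling cluster of 598, whose top genes included Cks2, Birc5 and Ccnb2. Those of P60 were a cluster of 861 cells. The part of cycling cells in the changes within endoneurial fibroblasts was not tested. A UMI of Ccl11 was found in 80.8% of endoneurial fibroblasts at P1 and 95.5% at P60, against 0.732% and 1.29% of macrophages. For these shares cells were thinned to 1500 UMIs, and cells below that depth were left out. In epineurial fibroblasts, which lie in the outer sheath of the nerve, the P1 libraries held 43.9, 52.2 and 54.5 CPM and the P60 libraries 743, 749 and 713 CPM. This was a 14.6-fold higher mean (log2 3.84 ± 0.11, adjusted p = 6.5e-09), still below the endoneurial level in each P60 library. With 4531 cells against 861 endoneurial ones, epineurial fibroblasts nonetheless held most Ccl11 UMIs of P60. Perineurial fibroblasts, the cells of the barrier layer around each fascicle, were named at P60 only and held 27.7 to 44.4 CPM.

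Summed over the whole class, Ccl11 went the other way. The fibroblast class held 833, 811 and 916 CPM at P1 and 723, 595 and 662 CPM at P60 (log2 -0.36 ± 0.10, adjusted p = 0.012, and 0.066 without P1 replicate 3). Endoneurial fibroblasts made up 37.0% to 38.6% of the fibroblasts in each P1 library and 8.81% to 12.9% in each P60 library. The P1 share includes the cycling cluster of 598 cells. Ccl2, which attracts monocytes through Ccr2, was split in the same manner: the class held 182, 164 and 178 CPM at P1 and 85.2, 63.6 and 97.6 CPM at P60 (log2 -1.09 ± 0.14, adjusted p = 0.00017). Inside the epineurial fibroblasts Ccl2 rose from 21.4, 23.5 and 34.9 CPM to 112, 73.3 and 90.3 CPM (log2 1.75 ± 0.20, adjusted p = 6.6e-05). Inside the endoneurial fibroblasts it stood at 325, 305 and 330 CPM at P1 and at 222, 460 and 541 CPM at P60, overlapping ranges that did not pass the test (log2 0.42 ± 0.22, adjusted p = 0.13). Ccl7, a second Ccr2 ligand, was lower at P60 in the class (log2 -1.43 ± 0.13, adjusted p = 1.6e-05) and higher in endoneurial fibroblasts, with 256, 273 and 253 CPM against 320, 436 and 424 CPM (log2 0.67 ± 0.12, adjusted p = 0.0006). A change of the class holds both the level within each subtype and the makeup of the class.

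Of the 30 chemokine and receptor genes that passed the filter on low counts in fibroblasts, 15 were higher and 10 lower at P60 (edgeR, adjusted p under 0.05). Of all tested genes 60% were called, 31.2% higher and 28.8% lower. In endoneurial fibroblasts 11 of 19 were higher and 3 lower, against 48.3% of all genes called (22.8% higher, 25.5% lower), and in epineurial fibroblasts 15 of 23 were higher and 3 lower, against 48.3% (25% higher, 23.3% lower). The median log2 change of these genes was 0.76 in the class, 1.18 in endoneurial and 1.75 in epineurial fibroblasts, and 0.04, -0.04 and 0.02 over all tested genes. A gene passes the low-count filter through the age where it is high, so these counts describe the list and test nothing about it.

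Epineurial fibroblasts gained a group of ligands and decoy receptors by P60, part of which rose in endoneurial fibroblasts as well. Cxcl14, a chemokine of skin and stroma, stood at 7.66, 9.63 and 9.24 CPM in the P1 libraries and at 308, 290 and 265 CPM in the P60 libraries, a 32.5-fold higher mean (log2 4.98 ± 0.14, adjusted p = 5.5e-09). Cxcl13, which attracts B cells through Cxcr5, had 19 UMIs in these cells at P1 and 10867 at P60, with 389, 406 and 590 CPM in the P60 libraries. Ccl8, a monocyte chemokine, rose from 2.09, 1.00 and 0 CPM to 52.6, 46.3 and 46.9 CPM (log2 5.60 ± 0.39, adjusted p = 1.7e-06). Ccl19, the Ccr7 ligand of lymphoid stroma, had no UMI in the epineurial fibroblasts of P1. Those of P60 held 675 UMIs, which is at least 135-fold higher per class total when P1 is set over the group to the 3 counts that a count of 0 allows. In each of these 4 genes the P60 libraries lay above all P1 libraries. In endoneurial fibroblasts Ccl8 (log2 5.82 ± 0.72, adjusted p = 2.1e-05) and Cxcl14 (log2 3.74 ± 0.35, adjusted p = 1.8e-06) were also higher at P60. Cxcl13 was called higher there too (edgeR adjusted p = 1.7e-05), and Ccl19 did not pass the low-count filter.

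Cxcl1, Cxcl2, Cxcl5, Cxcl9 and Cxcl10 were lower at P60 in fibroblasts, a set named after its values were seen. Cxcl1, which attracts neutrophils through Cxcr2, stood at 307, 341 and 304 CPM at P1 and at 29.6, 26.7 and 33.8 CPM at P60 in the class, a 10.6-fold lower mean (log2 -3.40 ± 0.12, adjusted p = 6.7e-08). It fell in endoneurial fibroblasts (504, 590 and 510 against 179, 217 and 171 CPM) and in epineurial fibroblasts (123, 130 and 139 against 23.7, 25.3 and 34.2 CPM), with log2 changes of -1.42 ± 0.13 (adjusted p = 1.3e-06) and -2.28 ± 0.14 (adjusted p = 9.4e-07). Cxcl1 thus fell within both subtypes as well as over the class. Cxcl2, a close relative with the same receptor, went from 21.2, 16.5 and 23.3 CPM to 2.63, 1.25 and 5.57 CPM in the class (log2 -2.76 ± 0.38, adjusted p = 0.0002). Cxcl5, another neutrophil ligand, had 100 UMIs in fibroblasts at P1 and 5 at P60, with 1.93, 3.39 and 2.00 CPM against 0.135, 0.171 and 0 CPM (log2 -4.33 ± 0.53, adjusted p = 0.00011). Cxcl10 stood at 12.6, 15.2 and 12.7 CPM and then 4.11, 1.71 and 10.1 CPM (log2 -1.41 ± 0.45, adjusted p = 0.023, and up to 0.070 in the alternatives, of which 4 lost the call). Cxcl9, like Cxcl10 an interferon-induced ligand of Cxcr3, stood at 3.71, 3.92 and 2.87 CPM at P1 and 0.809, 0.684 and 0.506 CPM at P60 (log2 -2.35 ± 0.27, adjusted p = 7.1e-05).

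The fall of Cxcl1 and Cxcl2 in fibroblasts went along with genes induced by tissue dissociation. Of 17 such genes (Fos, Egr1 and others), 13 were lower and 3 higher at P60 in fibroblasts, where 28.8% of all tested genes were lower and 31.2% higher, with a median log2 change of -0.96 against 0.04 over all genes, and their summed level was 8762 to 9258 CPM at P1 and 4282 to 5579 CPM at P60. Their part in the chemokine result was not tested. In mural cells 5 of 16 such genes tested were higher at P60 (18% of all genes), with a median log2 change of 0.65, and Cxcl1 was lower there too. Of 17 tested in each other class, 4 were higher and 7 lower in endothelial cells (21% and 19.1% of all genes), 6 and 2 in immune cells (20.4% and 17.2%) and 12 and 1 in Schwann cells (23.9% and 21%).

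Cxcl1 and Cxcl2 lie side by side on chromosome 5 in a group with Cxcl5, Cxcl3 and Cxcl15 (GRCm38 chr5:90759360-90905938), and Cxcl9, Cxcl10 and Cxcl11 form a second group further along (chr5:92321347-92365485). The 250 bases before the start sites of the genes with the largest inflammatory signal in each group are shown because they carry letters read by NF-kB and interferon factors. They are RefSeq promoter sequences of GRCm38.p6, printed 5′ to 3′ on the strand of the gene. Cxcl1 is at chr5:90890995-90891244 on the plus strand, Cxcl2 at chr5:90903649-90903898 on the plus strand and Cxcl10 at chr5:92348890-92349139 on the minus strand. Capitals mark the matches.
Cxcl1: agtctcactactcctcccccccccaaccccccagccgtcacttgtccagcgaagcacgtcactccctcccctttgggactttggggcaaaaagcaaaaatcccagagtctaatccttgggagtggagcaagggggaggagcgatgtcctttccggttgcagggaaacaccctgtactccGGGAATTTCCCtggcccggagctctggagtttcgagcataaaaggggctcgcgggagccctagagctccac
Cxcl2: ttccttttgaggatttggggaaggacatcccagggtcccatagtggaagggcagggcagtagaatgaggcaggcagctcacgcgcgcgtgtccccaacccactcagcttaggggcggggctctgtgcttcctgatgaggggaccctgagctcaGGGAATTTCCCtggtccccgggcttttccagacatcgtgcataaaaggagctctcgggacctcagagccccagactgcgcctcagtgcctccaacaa
Cxcl10: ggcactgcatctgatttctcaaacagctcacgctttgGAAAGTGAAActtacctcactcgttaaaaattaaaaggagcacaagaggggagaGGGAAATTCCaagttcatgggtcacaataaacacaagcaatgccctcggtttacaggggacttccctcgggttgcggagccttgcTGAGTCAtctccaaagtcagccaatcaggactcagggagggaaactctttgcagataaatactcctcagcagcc
The motifs searched on both strands, from 250 bases before to 50 bases after the start, were GGGA and TTCC with any 2 bases between for NF-kB, TGANTCA for AP-1, and TTTC and TTTC with any 2 bases between for interferon-regulated factors. Cxcl1 and Cxcl2 each hold 2 overlapping matches to the NF-kB letters, 1 on each strand. Cxcl10 holds 1 match to each motif. Among 32851 RefSeq promoters over the same window, 1.47% held the NF-kB letters, 7.81% the AP-1 letters and 3.44% the interferon letters. Of the 42 described genes 30 had a promoter in the table, and 3, 4 and 3 of them held the respective motif. A match describes the letters and is not a measured binding site.

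Cxcl12, which guides many cell types through Cxcr4, was shared between fibroblasts and endothelial cells at P1 and became mainly endothelial at P60. Endothelial cells held 398, 418 and 293 CPM at P1 and 1949, 2125 and 2536 CPM at P60, a 5.96-fold higher mean (log2 2.59 ± 0.16, adjusted p = 1.7e-07). A UMI of Cxcl12 was found in 25.3% of endothelial cells at P1 and in 75.4% at P60 at the same thinned depth, against 0.678% and 5.54% of macrophages. Fibroblasts of the endoneurium (488, 527 and 519 against 497, 460 and 410 CPM) and of the epineurium (290, 273 and 249 against 321, 327 and 248 CPM) overlapped between the ages, with log2 changes of -0.08 ± 0.11 and 0.11 ± 0.13 (adjusted p = 0.56 and 0.51). Over the whole fibroblast class Cxcl12 was lower at P60, with 348, 361 and 347 against 241, 204 and 172 CPM (log2 -0.77 ± 0.13, adjusted p = 0.0009). The age difference of Cxcl12 in endothelial cells exceeded that in the fibroblast class by a log2 value of 3.46 in a test of the difference itself. At P1 the endothelial and fibroblast libraries overlapped in Cxcl12 level, and at P60 every endothelial library lay above every library of the next class, mural cells.

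The receptor of Cxcl12 moved the opposite way in the same cells. Cxcr4 stood at 34.8, 33.4 and 29.8 CPM in endothelial cells at P1 and at 1.38, 2.01 and 2.13 CPM at P60, a 17.8-fold lower mean (log2 -4.08 ± 0.25, adjusted p = 2.1e-07). In immune cells Cxcr4 held 11.0, 14.4 and 14.8 CPM at P1 and 10.7, 9.69 and 15.6 CPM at P60, overlapping ranges (log2 -0.08 ± 0.25, adjusted p = 0.81), which made immune cells its highest class at P60. The endothelial difference lay below that in fibroblasts by a log2 value of -4.10. Cxcr4 did not pass the low-count filter in the fit of the fibroblast class alone.

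Of the 17 chemokine genes tested in endothelial cells, 9 were higher and 3 lower at P60, where 40.1% of all tested genes were called (21% higher, 19.1% lower) and the median log2 change was 1.97 against 0.01 over all genes. With the highest doublet scores left out 6 of 14 were higher and 3 lower with a median of 0.28, and with subclusters of mixed markers left out 7 of 14 were higher and 3 lower with a median of 1.25. Ccl21a, which leads dendritic and T cells into lymphatic vessels through Ccr7, stood at 251, 16.4 and 244 CPM at P1 and at 3157, 2307 and 2652 CPM at P60 (log2 4.01 ± 0.64, adjusted p = 0.00037). All 970 endothelial UMIs of P1 came from 1 cluster of 56 cells that held lymphatic and venous markers together, at 2247 CPM. At P60 lymphatic endothelial cells held 54132, 51403 and 38816 CPM, and a UMI of Ccl21a in 95.2% of thinned cells, against 2.61% of fibroblasts. Ccl21a lies on chromosome 4 (GRCm38 chr4:42772860-42773993, minus strand) near almost identical copies, of which Ccl21c held 88 UMIs, and the split of reads among the copies is uncertain. At P60 low Ccl21a levels appeared in every other class, for example 15.2 to 22.2 CPM in fibroblasts, where P1 had 0.0754 to 0.534 CPM, and a single Schwann library (P60 replicate 2) held 701 CPM against 18.2 and 24.7 CPM in the other two. The share of this that came from free RNA of lymphatic cells was not tested.

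Ackr1, an atypical receptor that carries chemokines across venules, marked the venous side. Endothelial cells held 10.5, 6.68 and 7.07 CPM at P1 and 88.6, 90.2 and 98.7 CPM at P60, an 11.4-fold higher mean (log2 3.53 ± 0.18, adjusted p = 5.3e-08). Venous endothelial cells held 707, 661 and 779 CPM at P60, with a UMI in 40.4% of thinned cells. Schwann cells, the next class after endothelial cells, held a mean of 24.0 CPM at P60. The gene model of Ackr1 overlaps Cadm3 on the same strand, so part of its reads may not have been countable. Cx3cl1, a membrane-bound ligand known as fractalkine, rose from 8.84, 12.3 and 11.6 CPM to 36.2, 42.2 and 49.4 CPM in endothelial cells (log2 1.97 ± 0.20, adjusted p = 1.2e-05). Cxcl1 fell from 61.3, 33.4 and 93.5 CPM to 5.51, 7.53 and 11.0 CPM (log2 -2.94 ± 0.35, adjusted p = 4.1e-05), and Ccl2 from 24.9, 16.4 and 30.8 CPM to 4.83, 3.01 and 5.49 CPM (log2 -2.43 ± 0.30, adjusted p = 5.5e-05). For these 4 genes no endothelial library of one age reached into the range of the other. Cxcl9 had no UMI in endothelial cells at P1 and 86 at P60, of which 70 lay in 1 cluster of 165 cells.

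Mural cells, the pericytes and smooth muscle cells around vessels, had changes in both directions. Of 11 chemokine genes tested 5 were higher and 5 lower at P60, where 33.5% of all tested genes were called (18% higher, 15.5% lower) and the median log2 change was 0.53 against 0.02 over all genes. The sign of this median is not stable: it was -0.39 without P60 replicate 1, -0.39 with the highest doublet scores left out and -0.99 with subclusters of mixed markers left out. Cxcl1 stood at 432, 555 and 601 CPM at P1, the highest level of any class at that age, and at 58.3, 45.1 and 71.9 CPM at P60 (log2 -3.01 ± 0.21, adjusted p = 3.5e-06). Ccl2 went from 444, 293 and 472 CPM to 77.3, 48.6 and 12.1 CPM (log2 -3.16 ± 0.41, adjusted p = 0.00019), and Ccl7 from 14.1, 64.6 and 30.4 CPM to 8.13, 3.56 and 4.46 CPM (log2 -2.67 ± 0.57, adjusted p = 0.0043). Ccl6 was higher at P60, with 2.17, 3.86 and 0.920 CPM and then 12.2, 29.6 and 11.5 CPM (log2 2.95 ± 0.57, adjusted p = 0.0023). Immune cells held a mean of 434 CPM of Ccl6 at P1 and 3076 CPM at P60. Immune markers stood in mural cells at 0.110% to 0.611% of their immune level at P1 and 0.379% to 1.04% at P60. The part of immune RNA in the mural Ccl6 values was not tested. At P1 a cluster of 108 pericytes held 1508 CPM of Cxcl1 and 1232 CPM of Ccl2.

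Ccl11 was a mural chemokine as well. The class held 236, 349 and 440 CPM at P1 and 163, 151 and 96.1 CPM at P60 (log2 -1.24 ± 0.22, adjusted p = 0.0014). Pericytes held 315, 436 and 544 CPM at P1 and 378, 310 and 332 CPM at P60, with overlap, whereas vascular smooth muscle cells held 102, 206 and 194 CPM and then 18.4, 4.96 and 13.3 CPM, without overlap. Mural cells of P1 held 3 UMIs of Ccl19 and those of P60 held 86, a ratio of CPM of 27.7 with a 95% counting interval of 9.17 to 137, and at P60 pericytes held it at 137, 71.9 and 85.4 CPM. Its mural and fibroblast libraries overlapped at P60.

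**Figure D2:**
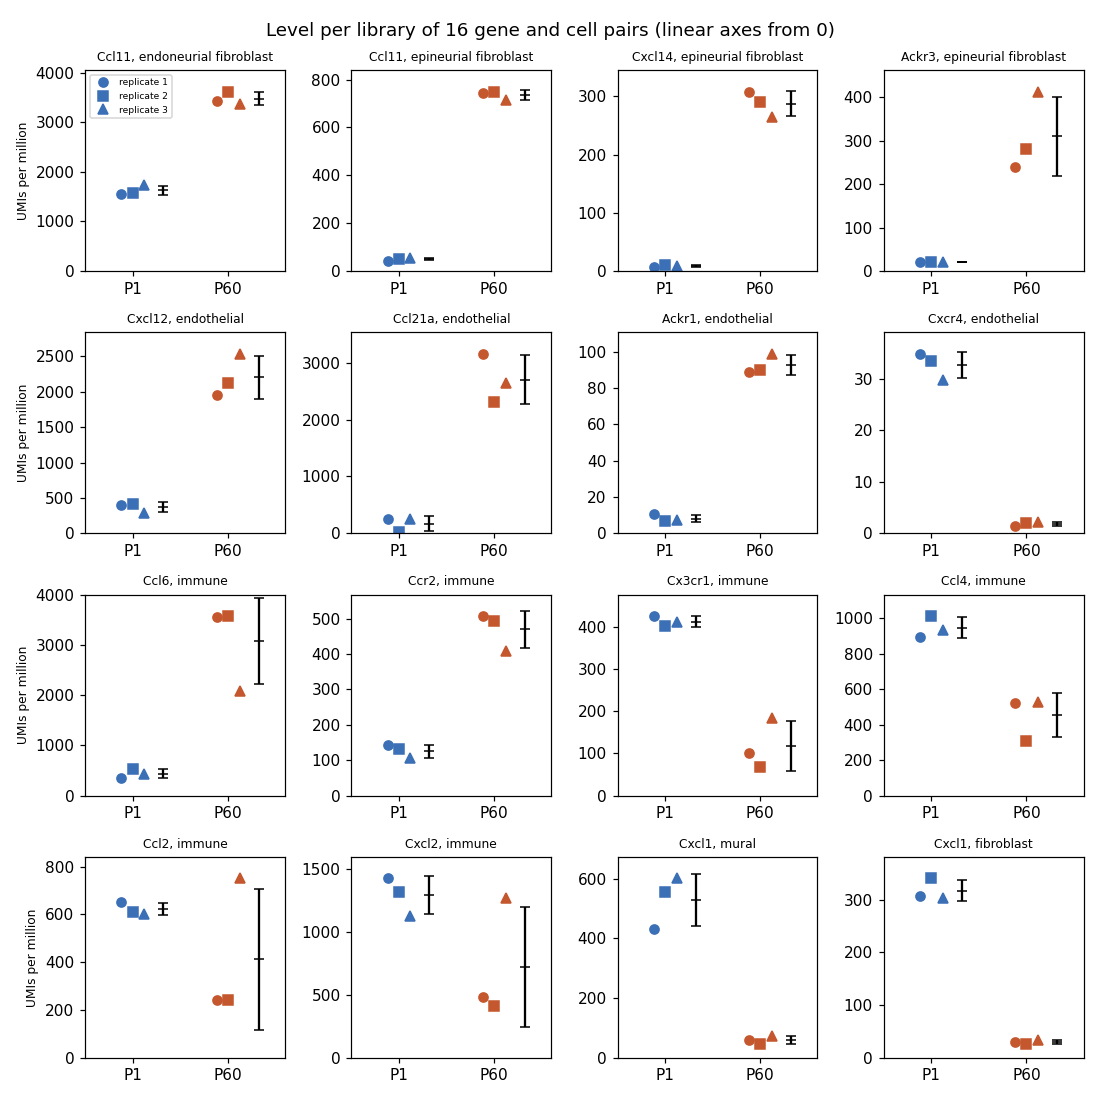
Level of 16 gene and cell pairs in each library, in CPM on linear axes from 0, with symbols for replicates 1 to 3 and a bar for the mean and SD of 3 libraries. In the panels of Ccl2 and Cxcl2 in immune cells the P60 replicate 3 library lies at or above the P1 level while the other two P60 libraries lie below it.

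Immune cells, mostly macrophages, made the widest set of chemokines and held most receptors. Of 33 chemokine genes tested 16 were higher and 6 lower at P60, where 37.5% of all tested genes were called (20.4% higher, 17.2% lower), with a median log2 change of 0.85 against 0.02 over all genes. In macrophages alone 10 of 25 were higher and 4 lower, against 39.2% of all genes (20.9% higher, 18.3% lower). The Cc ligands of chromosome 11 form 2 groups. Ccl5, Ccl9, Ccl6, Ccl3 and Ccl4 (GRCm38 chr11:83525778-83664683) were all highest in immune cells at both ages. The neighbours Ccl2, Ccl7, Ccl11, Ccl12 and Ccl8, with Ccl1 (chr11:82035571-82305690), were split between immune cells, endoneurial and epineurial fibroblasts and pericytes.

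Ccl6 and Ccl9 are ligands of Ccr1 and found in rodents. Ccl6 rose from 354, 525 and 424 CPM to 3565, 3577 and 2087 CPM in immune cells, a 7.08-fold higher mean (log2 2.89 ± 0.23, adjusted p = 3.4e-06), and Ccl9 from 409, 520 and 466 CPM to 1380, 1388 and 1032 CPM (log2 1.51 ± 0.16, adjusted p = 2.5e-05). Ccl9 also rose in endoneurial fibroblasts, from 6.18, 6.78 and 6.58 CPM to 122, 108 and 56.5 CPM (log2 3.96 ± 0.25, adjusted p = 5.5e-08). Ccl24, or eotaxin-2, rose in immune cells from 82.9, 152 and 84.7 CPM to 420, 517 and 415 CPM (log2 2.14 ± 0.23, adjusted p = 3.1e-05). Ccl8 rose from 13.6, 10.0 and 12.6 CPM to 71.1, 181 and 152 CPM (log2 3.54 ± 0.32, adjusted p = 8.7e-06). The ages did not overlap for any of these genes, and all 4 rose within macrophages as well, by log2 values of 3.11 (Ccl6), 1.60 (Ccl9), 2.70 (Ccl24) and 4.01 (Ccl8).

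Ccl3 and Ccl4, also called MIP-1 alpha and beta, are inflammatory ligands of macrophages and moved down. Ccl4 stood at 893, 1010 and 935 CPM in immune cells at P1 and at 523, 310 and 526 CPM at P60 (log2 -1.01 ± 0.18, adjusted p = 0.00089), and Ccl3 at 608, 715 and 588 CPM and then 320, 295 and 405 CPM (log2 -0.85 ± 0.14, adjusted p = 0.00066). Within macrophages Ccl4 stayed lower (log2 -0.62 ± 0.20, adjusted p = 0.026), and Ccl3 did not pass the test (log2 -0.25 ± 0.14, adjusted p = 0.17). Cxcl10, the interferon-induced ligand of Cxcr3, fell from 82.5, 49.6 and 64.0 CPM to 11.3, 8.16 and 18.2 CPM in immune cells (log2 -2.30 ± 0.27, adjusted p = 5.5e-05). Cxcl16, a membrane-bound ligand of Cxcr6, fell from 120, 130 and 139 CPM to 78.2, 56.1 and 80.8 CPM in immune cells (log2 -0.80 ± 0.16, adjusted p = 0.002) while it rose in fibroblasts, from 3.48, 3.84 and 4.27 CPM to 22.5, 18.5 and 11.8 CPM (log2 2.20 ± 0.25, adjusted p = 6.2e-05). The age difference of Cxcl16 in immune cells lay below that in fibroblasts by a log2 value of -2.92 in a test of the difference itself.

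The early-response ligands Ccl2, Ccl7, Ccl12, Cxcl1 and Cxcl2 depended on 1 library. In immune cells Cxcl2 stood at 1426, 1322 and 1128 CPM at P1 and at 481, 413 and 1270 CPM at P60 (log2 -0.79 ± 0.32, adjusted p = 0.067), and Ccl2 at 651, 612 and 603 CPM and then 241, 243 and 750 CPM (log2 -0.55 ± 0.33, adjusted p = 0.22). In both genes P60 replicate 3 reached the P1 level and the other two P60 libraries did not. Ccl12, one more Ccr2 ligand, held 441, 495 and 370 CPM and then 222, 183 and 472 CPM. Without P60 replicate 3 the log2 changes were -1.45 for Cxcl2 (adjusted p = 1.6e-07), -1.28 for Ccl2 (adjusted p = 2.9e-08), -1.03 for Ccl12 (adjusted p = 2.2e-05), -0.86 for Ccl7 (adjusted p = 1.5e-05) and -1.69 for Cxcl1 (adjusted p = 0.00018). Within macrophages none of these genes passed the test over all libraries (edgeR, adjusted p of 0.24 to 0.93). Their log2 changes there were -0.36 (Cxcl2), -0.19 (Ccl2), 0.03 (Ccl12), 0.43 (Ccl7) and -0.10 (Cxcl1). Without P60 replicate 3 the macrophage values were -1.01, -0.81, -0.43, -0.12 and -0.80 in the same order. In that fit Ccl7 did not pass (adjusted p = 0.49), and Cxcl1 passed narrowly (adjusted p = 0.0497). The cluster of 130 macrophages drawn mainly from that library held 4139 CPM of Cxcl2, 1651 of Ccl12, 1476 of Ccl2 and 283 of Cxcl1. The summed level of the 17 dissociation genes in immune cells was 14160 and 12834 CPM in P60 replicates 1 and 2 and 21407 CPM in replicate 3, and their part in the result was not tested.

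P60 macrophages fell into clusters with unlike chemokine sets. A cluster of 369 cells held 1440 CPM of Ccl24, 545 of Ccl8 and 6214 of Ccl6, with 16.2 CPM of Cx3cr1, the receptor of fractalkine. A second cluster of 312 cells held 338 CPM of Cx3cr1 and 673 of Ccl12, with 172 CPM of Ccl24 and 3.76 of Ccl8. At P1 a cluster of 159 macrophages held 386 CPM of Ccl24, 1254 of Ccl6 and 71.0 of Cx3cr1, and 3 larger clusters of 258, 200 and 125 cells held 629 to 652 CPM of Cx3cr1, with less Ccl24. These are pooled values of the clusters, given as a description.

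Ccl5, which attracts T cells and monocytes, had its highest level in the T and NK cells of P60, at 2552, 7223 and 7278 CPM. In the immune class it rose from 25.8, 12.0 and 28.1 CPM to 121, 234 and 300 CPM (log2 3.37 ± 0.34, adjusted p = 1.9e-05), and 1341 of its 1356 UMIs at P60 came from the 82 T and NK cells, a type that no P1 cluster was named for. At P1 164 of the UMIs lay in a cluster of 64 cells with T, NK, mast cell and Schwann markers together, and with such mixed subclusters left out the fitted log2 change was 7.16 for Ccl5 and 8.81 for Cxcr6. Xcl1, made by NK and T cells, had 27 of its UMIs in these cells. Ccl17, a ligand of Ccr4, rose from 1.10, 2.40 and 1.11 CPM to 46.8, 35.2 and 19.4 CPM in immune cells (log2 4.47 ± 0.44, adjusted p = 1.7e-05), and 165 of its 193 UMIs at P60 lay in an unnamed immune cluster of 211 cells that also held 941 CPM of Ccr2.

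Schwann cells had the lowest summed ligand level of the 5 classes at P1. Of 17 genes tested all 14 that were called were higher at P60, where 44.9% of all tested genes were called, 23.9% higher and 21% lower. Their median log2 change was 2.59 against 0.05 over all genes, and the medians of all classes were the same with genes of 3 or fewer UMIs at one age set to their bound. Most of these genes had their source in another class. The 6 fibroblast markers stood at a median of 9.71% of their fibroblast level in Schwann cells at P1 and at 31.8% at P60 (range 21.1% to 51.6%), and of the genes highest in fibroblasts at P60, Ccl11 at 26.5%, Ackr3 at 21.4%, Ackr2 at 35.9% and Cxcl13 at 47.0% of their fibroblast levels fell in that range, Cxcl14 at 64.4% lay above it and Ackr4 and Cxcl5 had no UMI in Schwann cells. Ccl11 in Schwann cells stood at 9.14, 10.0 and 12.3 CPM at P1 and at 200, 216 and 109 CPM at P60 (log2 3.95 ± 0.24, adjusted p = 2.6e-08), and Cxcl12 at 8.33, 8.56 and 7.12 CPM and then 82.0, 143 and 71.9 CPM (log2 3.56 ± 0.26, adjusted p = 1.8e-07). The part of fibroblast RNA in these values was not tested.

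Some ligands had their highest level in Schwann cells. Cxcl11, a ligand of Cxcr3 that the annotation lists as a polymorphic pseudogene, was highest in Schwann cells at both ages, with 4.90, 5.61 and 4.75 CPM at P1 and 42.5, 35.2 and 22.6 CPM at P60 (log2 2.59 ± 0.32, adjusted p = 2.3e-05). At P60 Schwann cells held 87.0% of its 46 UMIs within the classes, and the next class held 0.144 CPM. Cxcl10 stood at 26.9, 21.1 and 18.3 CPM at P1 and at 12.1, 77.4 and 80.2 CPM at P60, with overlap (log2 1.40 ± 0.36, adjusted p = 0.0064, and 0.056 without P60 replicate 3). Art3, the antisense partner of Cxcl10 and Cxcl11, was among the top genes of the P60 Schwann cluster. The part of Art3 reads in the Schwann values of Cxcl10 and Cxcl11 was not tested. Cxcl14 was highest in Schwann cells at P1, with 19.6, 26.3 and 20.2 CPM against 4.22 to 4.56 CPM in fibroblasts, and at P60 the libraries of both classes overlapped. Ccl25, a ligand of Ccr9 known from gut and thymus, stood at 14.4, 15.2 and 14.2 CPM in Schwann cells at P1 and at 6.07, 14.1 and 26.7 CPM at P60, which did not pass the test (log2 0.14 ± 0.36, adjusted p = 0.79). Ccl27a, a skin chemokine with near-identical copies, was spread over Schwann cells, mural cells and fibroblasts at 17.6 to 34.4 CPM in the P60 libraries, and its levels in Schwann and mural cells overlapped at both ages.

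**Figure D3:**
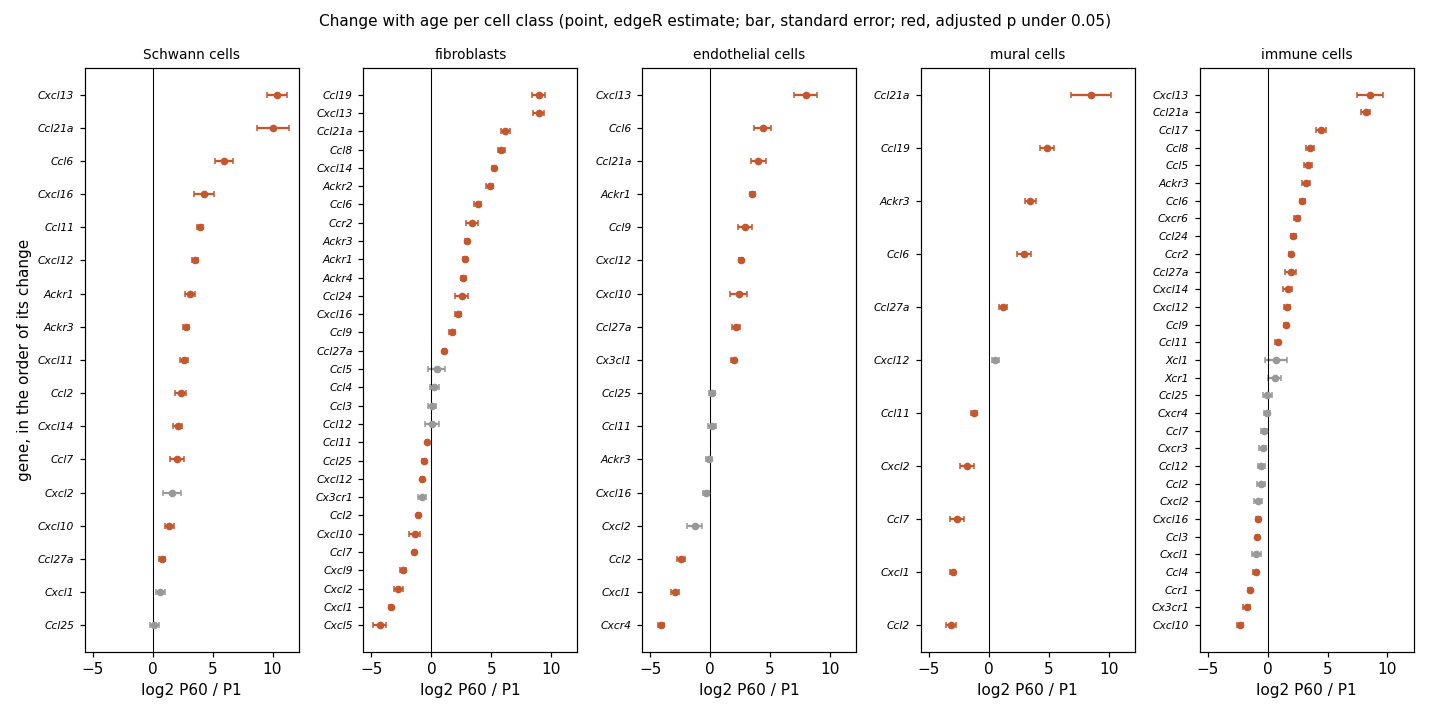
Change between P1 and P60 of the tested chemokine and receptor genes named here, by class, as log2 P60 / P1 on the horizontal axis, with the edgeR estimate as a point, its standard error as a bar and red for an adjusted p under 0.05. Mural cells and fibroblasts hold called genes on both sides of 0, and the 14 called genes of Schwann cells all lie to the right.

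Signalling receptors were mostly immune. Ccr2, the receptor of monocytes for Ccl2, rose from 142, 130 and 106 CPM to 507, 493 and 409 CPM in immune cells, a 3.73-fold higher mean (log2 1.96 ± 0.16, adjusted p = 4.4e-06). It also rose within macrophages, by a log2 value of 2.15. Cx3cr1 fell from 425, 401 and 411 CPM to 101, 68.3 and 183 CPM (log2 -1.75 ± 0.26, adjusted p = 0.00027), and Ccr1 from 233, 213 and 191 CPM to 76.4, 66.3 and 80.0 CPM (log2 -1.46 ± 0.14, adjusted p = 1.6e-05). No immune library of P60 overlapped with those of P1 in any of these 3 receptors. Within macrophages Cx3cr1 fell by 1.27 and Ccr1 by 1.04 on the log2 scale (adjusted p = 0.0013 and 0.00013).

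Receptors of lymphocytes and dendritic cells had fewer UMIs. Cxcr6 rose from 3.68, 5.60 and 4.44 CPM to 27.9, 20.9 and 24.2 CPM in immune cells (log2 2.46 ± 0.25, adjusted p = 2.1e-05), and the T and NK cells of P60 held 588, 586 and 599 CPM. Xcr1, the receptor of cross-presenting dendritic cells for Xcl1, stood at 72.5, 263 and 247 CPM in dendritic cells at P1 and at 40.5, 137 and 46.1 CPM at P60, and its level in all immune cells did not differ beyond its spread (log2 0.59 ± 0.52, adjusted p = 0.39). Cxcr3, the receptor for Cxcl9, Cxcl10 and Cxcl11, held 13.3, 19.2 and 15.9 CPM in immune cells at P1 and 17.2, 8.67 and 9.51 CPM at P60 (log2 -0.42 ± 0.28, adjusted p = 0.27). Ccr10, with 50 UMIs in all, was under 1 CPM on average in every class.

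Atypical receptors made up most receptor UMIs of fibroblasts. Ackr3, which takes up Cxcl12, stood at 20.4, 19.9 and 20.4 CPM in epineurial fibroblasts at P1 and at 239, 280 and 413 CPM at P60, a 15.4-fold higher mean (log2 3.90 ± 0.20, adjusted p = 2.4e-07), and at 20.6, 31.4 and 32.0 CPM and then 86.1, 92.9 and 77.4 CPM in endoneurial fibroblasts (log2 1.68 ± 0.18, adjusted p = 5.3e-06). Perineurial fibroblasts held 187, 220 and 282 CPM at P60. Ackr2, a scavenger of inflammatory Cc ligands, rose from 0.697, 1.40 and 1.51 CPM to 18.6, 19.4 and 31.4 CPM in epineurial fibroblasts (log2 4.16 ± 0.32, adjusted p = 3.6e-06). Ackr4, a scavenger of Ccl19, Ccl21 and Ccl25, rose there from 5.13 ± 0.997 CPM (SD, n = 3) to 13.2 ± 2.65 CPM (log2 1.35 ± 0.23, adjusted p = 0.00081). Ackr1 rose in epineurial fibroblasts as well, from 8.83, 6.62 and 7.17 CPM to 33.3, 34.3 and 40.7 CPM (log2 2.23 ± 0.16, adjusted p = 1.9e-06). All 4 atypical receptors were therefore higher in the P60 libraries of epineurial fibroblasts than in any P1 library of them, and lymphatic endothelial cells also held Ackr2 at 28.2 to 77.3 CPM and Ackr3 at 94.4 to 268 CPM at P60.

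**Figure D4:**
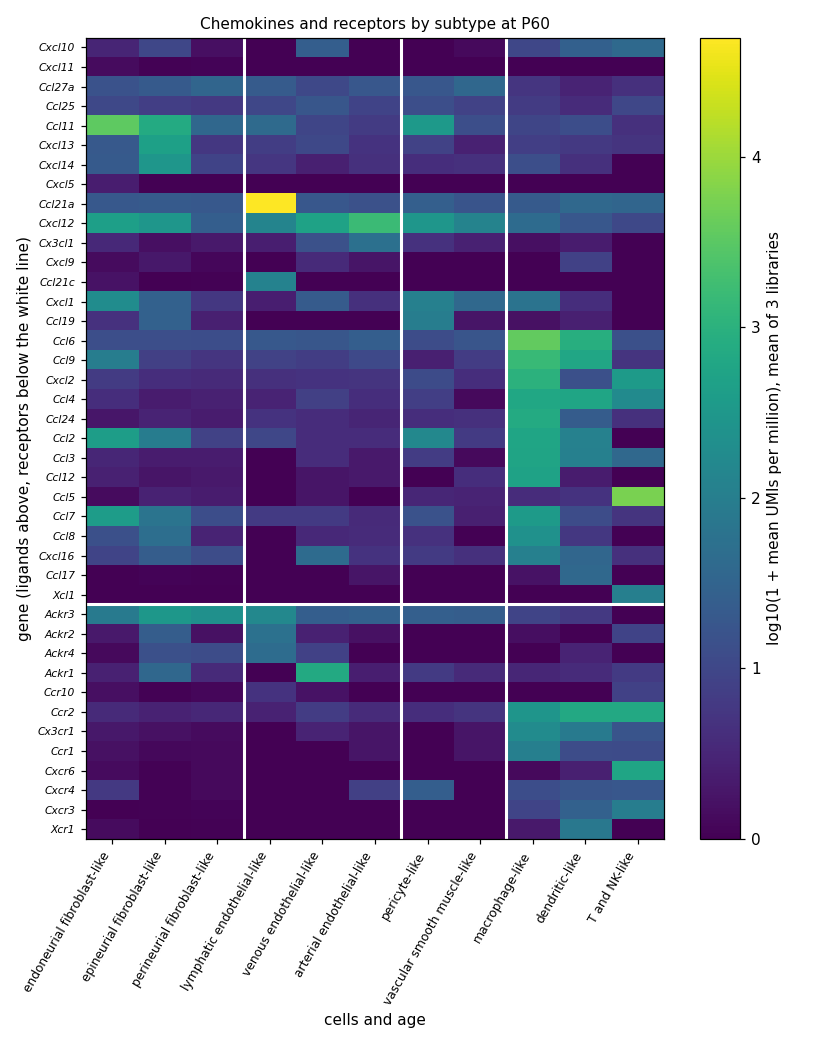
Mean level of the genes named here in 11 subtypes at P60, as log10(1 + CPM) over 3 libraries, with ligands above and receptors below the white line. Ccl21a is brightest in lymphatic endothelial cells, Ccl11 in endoneurial fibroblasts, Ccl5 in T and NK cells and Ackr1 in venous endothelial cells.

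Set side by side with their main signalling receptors, several abundant ligands had almost no transcript of that receptor in the nerve. Ccl11 with 68789 UMIs and Ccl24 with 3688 share Ccr3, which had 12 UMIs in the 6 libraries. Cxcl13 with 11480 UMIs faced 5 of Cxcr5, Ccl21a with 31830 faced 49 of Ccr7, and Cxcl1 with 19625 and Cxcl2 with 16242 faced 44 of Cxcr2. Atypical receptors are not in these counts. Ackr4, paired with Ccl21a, held 689 UMIs. Ackr1, paired with inflammatory Cc and Cxc ligands, held 2251, and Ackr2, paired with inflammatory Cc ligands, held 638. Other ligands met receptors in the same tissue: Cxcl12 (56411 UMIs) faced the atypical Ackr3 with 14308 and the signalling Cxcr4 with 574, Ccl2 (21116) faced Ccr2 with 3956, and Ccl6 (22323) faced Ccr1 with 2184. Counts of a ligand and of its receptor are not on a scale of protein, and receptor genes on cells that were not captured are not counted.

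Genes that act with chemokines were read from lists, each gene tested in the same fits. In fibroblasts 8 of 12 tested proteases and anchors of chemokines rose and 2 fell, against 31.2% and 28.8% of all genes (median log2 0.58 against 0.04 over all genes). Dpp4, a protease that clips Cxcl12, rose by a log2 value of 2.29 ± 0.12 (adjusted p = 4.6e-07) and Sdc4, a heparan sulfate proteoglycan, by 2.22 ± 0.13 (adjusted p = 1.1e-06), whereas Sdc3 fell by 1.51 on the log2 scale (adjusted p = 8.3e-06). In immune cells 7 of 12 rose and 1 fell, against 20.4% and 17.2% (median 1.07 against 0.02), among them Mmp9, a matrix protease, by 6.37 ± 0.31 (adjusted p = 9.3e-08). Endothelial cells had 4 of 11 higher and 1 lower (21% and 19.1% of all genes), mural cells 3 of 10 and 1 (18% and 15.5%), and Schwann cells 4 of 11 and 1 (23.9% and 21%).

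Of the 9 chemokine-like genes outside the naming rule, 5 of 7 tested rose and 1 fell in fibroblasts (31.2% and 28.8% of all genes), and 3 of 8 rose and 4 fell in immune cells (20.4% and 17.2%). In endothelial cells 4 of 6 rose (21% of all genes), in mural cells 3 of 5 (18%), and in Schwann cells 3 of 4 rose and 1 fell (23.9% and 21%). Cd74, a receptor for Mif that also serves antigen presentation, rose by a log2 value of 4.79 ± 0.34 in fibroblasts (adjusted p = 3.1e-06). In immune cells it rose by 3.77 ± 0.19 (adjusted p = 1.3e-07). The P60 libraries held 59.9, 50.5 and 48.0 CPM of Cd74 in fibroblasts and 24346, 23157 and 18293 CPM in immune cells. Immune markers stood at 0.388% to 0.752% of their immune level in fibroblasts at P60. The part of immune RNA in the fibroblast value was not tested. Mif fell by 1.08 in fibroblasts (adjusted p = 0.00039) and by 1.41 in immune cells (adjusted p = 0.00013), and the platelet chemokine Pf4 fell by 0.62 in immune cells (adjusted p = 0.00065). Of the signalling genes for migration, 3 of 15 were higher and 5 lower in fibroblasts, 4 and 4 of 21 in immune cells, 1 and 3 of 13 in endothelial cells, 1 and 5 of 11 in mural cells and 2 and 4 of 11 in Schwann cells. Against the same shares over all genes (15.5% lower in mural cells), these counts of few genes give no result about the list. Rgs2, a brake on G protein signalling, fell by 3.38 in fibroblasts (adjusted p = 2.3e-07) and by 3.51 in endothelial cells (adjusted p = 1.7e-08). Of 14 transcription factors known to act on inflammatory chemokine genes, 6 rose and 3 fell in fibroblasts (31.2% and 28.8% of all genes). In immune cells 5 rose and 1 fell (20.4% and 17.2%), and in endothelial cells 3 rose and 2 fell (21% and 19.1%). In mural cells 2 rose and 1 fell of 11 (18% and 15.5%), and in Schwann cells 10 of 13 rose (23.9%). The endothelial and mural counts lie near the shares of all genes and give no result about the list. Irf7, an interferon factor, rose by 3.82 ± 0.20 in fibroblasts (adjusted p = 5.5e-07), and Fos fell there by 1.49 (adjusted p = 4.2e-05).

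Whether a class changed differently from fibroblasts was tested as a difference of age differences over 39 chemokine and receptor genes. In Schwann cells 13 genes had a higher and 1 a lower difference than in fibroblasts, against 30.7% of all genes called (16.2% higher, 14.5% lower), and in endothelial cells 6 and 4, against 30.2% (16.4% and 13.8%). Of the Schwann genes, Ccl3, Ccl9, Ccl12, Ccl24 and Ccr1 did not pass the low-count filter in the fit of Schwann cells alone. In mural cells 1 gene was higher and 2 lower, against 20.7% (10.9% and 9.84%), and in immune cells 7 and 5, against 30.1% (16.4% and 13.7%). The mural share was lowest over all genes as well, and only 11 chemokine genes passed the low-count filter in mural cells alone. The low mural count therefore gives no result about mural cells. Cxcl12 and Cxcr4 gave the endothelial class a high and a low departure in 1 ligand and receptor pair.

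How many cells held a UMI of any chemokine or receptor gene was compared over libraries after cells were thinned to 1500 UMIs. Cells below that depth were left out, at P60 16 Schwann, 67 fibroblast, 11 endothelial, 6 mural and 10 immune cells. The share was 16.7% ± 1.25 (SD, n = 3) in Schwann cells at P1 and 52.7% ± 2.58 at P60, 46.5% ± 2.56 and 89.3% ± 1.74 in endothelial cells, 67.3% ± 0.504 and 74.5% ± 2.49 in fibroblasts, and 96.5% ± 1.10 and 98.6% ± 0.479 in immune cells. Mural cells went down, from 63.1% ± 3.49 to 50.1% ± 8.12. The ages did not overlap in any class, and each two-sided exact permutation test gave p = 0.1, the smallest that 3 against 3 libraries allow, so that none could reach 0.05. Without thinning the pooled shares were 47.6% and 63.1% in Schwann cells and 77.1% and 97.3% in endothelial cells. The fibroblast markers given above were also higher in the P60 Schwann libraries, and their part in the Schwann share was not tested.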

How the data were processed

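Single-cell suspensions of mouse sciatic nerve were sequenced in 3 libraries at P1 and 3 at P60. The authors deposited raw UMI counts per gene and barcode, made with Cell Ranger 2.0.2 (GRCm38.p5 in the submitters' processing notes, while the methods text names a human build), with no normalization or pooling. Total counts were 20203440 to 30334608 UMIs per library, and counting intervals and floors cover counting error only. Replicate numbers are those of the labels.

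Cells with 500 to 5000 genes were clustered per age in Seurat 5.3.0 (R 4.3.3) after the members were left out of the variable genes, and clusters and subclusters were named from markers. Names were rebuilt here and may differ from the study's. Doublets were scored with Scrublet in scanpy 1.11.5 and kept in the main result. Pairs of libraries shared 14 to 33 barcodes.

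Counts were summed per library and class, and P60 was tested against P1 by edgeR 4.0.16 (TMM, filterByExpr, quasi-likelihood, Benjamini-Hochberg over all tested genes, threshold 0.05), as was the difference of age differences between each class and fibroblasts, with the library as a term. On simulated counts 86.9% of genes changed by a log2 value of 1 were recovered in fibroblasts, 75.8% in immune cells and 45.8% in Schwann cells. For the difference of age differences in immune cells against fibroblasts, 32% were recovered. The simulation gave all genes the same dispersion and held no outlying library, unlike the data. Every member with 50 or more UMIs was named, apart from an item that is not reported here, with values per library for the 20 with most UMIs and for those called with an absolute log2 change of at least 1 and 20 UMIs in the class. The members and lists were chosen with earlier results of these data known. DESeq2 1.42.0 and the other alternatives are given in the closing section.

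Positions came from GENCODE M21 (GRCm38), where 60 of the 67 rows were found. The methods do not say whether strand was used, so antisense partners (Art3 for Cxcl10 and Cxcl11, Il11ra1 for Ccl27a, Zmynd15 for Cxcl16) cannot be told apart.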

Additional observations from a re-analysis of the deposited data

Results flagged for a closer look

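The following genes were picked out because their P60 against P1 difference in a class differed from that in fibroblasts in a test of the difference itself (edgeR, adjusted p under 0.05, with the library as a term), which holds for 14 of 39 chemokine genes in Schwann cells (30.7% of all genes), 10 in endothelial cells (30.2%), 3 in mural cells (20.7%) and 12 in immune cells (30.1%). Values are the log2 difference in the class minus that in fibroblasts, and the fibroblast difference holds the change in subtype makeup described above. In Schwann cells it was 4.30 for Ccl11, 4.30 for Cxcl12, 4.20 for Cxcl2, 3.93 for Cxcl1, 3.46 for Ccl24, 3.33 for Ccl7, 3.30 for Ccl2, 3.28 for Ccl12, 3.21 for Ccr1, 2.71 for Cxcl10, 2.67 for Ccl3, 2.40 for Ccl9, 2.14 for Ccl6 and -3.15 for Cxcl14. Of these genes, Ccl3, Ccl9, Ccl12, Ccl24 and Ccr1 did not pass the low-count filter in the fit of Schwann cells alone. Ccl24 had 3 UMIs in Schwann cells at P1 and Ccr1 had 5 at P1 and 3 at P60, and Ccr1 lost its call in 9 alternatives. Schwann cells of P60 held 5.22 ± 4.39 CPM of Ccl3 and 6.95 ± 10.1 CPM of Ccl12 (SD, n = 3). There, 3 UMIs in a library correspond to 6.17 to 9.11 CPM. Fibroblast markers rose in the same Schwann libraries, and their part in these values was not tested. In endothelial cells it was 3.93 for Cxcl10, 3.46 for Cxcl12, 1.17 for Ccl27a, 0.82 for Ccl25, 0.80 for Ackr1, -2.43 for Cxcl16, -3.02 for Ackr3, -3.25 for Cxcl14 and -4.10 for Cxcr4. For Ccl5, with no endothelial UMI at P1 and 95 at P60, the fitted value of 7.97 depends on the prior count and is no bound. In mural cells it was 1.26 for Cxcl12, which was 0.37 with mixed subclusters left out (adjusted p = 0.18), -0.87 for Ccl11 and -2.23 for Ccl2. In immune cells it was 4.67 for Ccl17, 2.91 for Ccl5, 2.43 for Cxcl1, 2.41 for Cxcl12, 1.95 for Cxcl2, 1.27 for Ccl11, 1.08 for Ccl7, -0.90 for Ccl3, -1.22 for Ccl4, -2.24 for Ccl8, -2.92 for Cxcl16 and -3.51 for Cxcl14.

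Cells outside the 5 classes also held chemokine transcripts. In the P1 clusters that stayed unnamed, 24 of the described genes had over 3 UMIs, and in the P60 clusters with markers of more than 1 class 28 did. No comparison used these cells.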

How the results depend on the processing

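Each count of called chemokine genes was recomputed under the alternatives. Without the filter on low counts 26 genes were called in Schwann cells in place of 14 (30.5% of all genes in that fit), 22 in endothelial cells in place of 12 (25.4%) and 17 in mural cells in place of 10 (21.2%), and the count that differed from fibroblasts was 19 in endothelial cells in place of 10 (15.9%) and 6 in mural cells in place of 3 (10.5%), as more genes were tested. With the highest doublet scores left out, 9 genes in Schwann cells differed from fibroblasts in place of 14 (29% of all genes), and with each library left out in turn this count was 9 to 13, with 9 without P60 replicate 1 (26.8%). Without thinning, the P60 minus P1 share of cells with a chemokine UMI was 15.6 percentage points in Schwann cells in place of 36.0, 2.81 in fibroblasts in place of 7.22, 20.3 in endothelial cells in place of 42.8 and 0.0469 in immune cells in place of 2.06, and thinning to 1000 UMIs gave 28.4 in Schwann cells. No called count, single gene or share turned its direction, but the median log2 change of mural genes, 0.53, was -0.39 to 0.81 with each library left out in turn, with -0.39 without P60 replicate 1, and was -0.39 with the highest doublet scores left out and -0.99 with mixed subclusters left out, an alternative chosen after seeing the data. Of 83 changes of single genes, 70 stayed on their side of the threshold in every alternative. The replicate numbers do not pair the libraries (same-number correlations of -0.083 to 0.103), and with the replicate block 25 genes were called in immune cells in place of 22. Cxcl2 in mural cells and Ccl27a in Schwann and mural cells lost their call in some alternatives, with adjusted p up to 0.17, 0.14 and 0.10; the cause was not tested. The 421 Schwann cells of P60 limit what could be called in that class.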
